A study of Rattus norvegicus with 12 samples.

Results

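Cultured hepatocytes, the liver's own metabolic cells, from female rats were compared with those from male rats in the absence of added hormone. The comparison rests on the 6 vehicle arrays of a series of 12, 3 titled female and 3 titled male. Livers of Sprague-Dawley rats aged 11 weeks were dissociated with collagenase, and the cells stood for 24 h on collagen-coated dishes in medium with 10% fetal serum and for 24 h without serum. All 6 samples then received vehicle, 0.01% ethanol, for 6 h, while the other 6 samples of the series, 3 of each sex, received dexamethasone, a synthetic glucocorticoid, at 100 nM (written nm in the labels). Sex is that of the titles, since the labels' gender entry is male throughout, for the 6 samples titled female as well. Whether replicates were different rats or dishes is not given, so the p-values speak only of how far these samples spread, and that spread can be technical.

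Rat liver is a classic case of sexual dimorphism. Male pituitaries release growth hormone in pulses and female pituitaries release it nearly continuously, and through the receptor, JAK2 and the transcription factor STAT5b these patterns set which cytochromes P450, sulfotransferases and secreted proteins a liver makes. Alpha-2u globulins, the rat's major urinary proteins, are secreted by the male liver and carry pheromones in urine. In culture the hepatocytes no longer receive pituitary hormone or gonadal steroids from blood.

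Each sample was hybridised to 1 Agilent array of 60-base probes, and a level below is the log2 processed signal minus that array's 75th percentile. A gene was kept where every array of females, or every array of males, put its probe well above background. This left 25597 genes, of which 13140 carry a symbol. The arrays of the sexes differed in quality. Between 45.7% and 55.6% of probes were above background on the male arrays, against 74.8% to 78.1% on the female arrays. Replicate probes within an array varied by 17.8% to 21.1% (median CV) in males and by 4.59% to 8.47% in females. The dimmest probe that counted as above background lay between -4.61 and -3.40 on the male arrays and between -7.20 and -6.88 on the female arrays, so the measuring range was narrower at the dim end in males. All male vehicle arrays lay on slide 1 and the female ones on slides 2 and 3, so no slide held both sexes in vehicle. A fit over all 12 arrays with slide as a block links the sexes through the dexamethasone arrays, on the assumption that a slide shifts every sample alike. In that fit the effect of slide 1 rests on 1 array, male dexamethasone replicate 1, set against male dexamethasone replicates 2 and 3 on slide 2. On that array 66.5% of probes were above background, against 80.4% and 77.2% on replicates 2 and 3.

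All 15 hepatocyte markers were above background on every array, and albumin, the main plasma protein, read 7.33, 7.54 and 7.43 on the female arrays and 7.61, 8.03 and 7.75 on the male arrays. For the titled sex, 0 of 8 Y-linked genes had a probe here. The probe of AW141328, a transcript that the file describes as similar to Xist, the RNA that coats the inactive X chromosome of females, was above background on 3 of 3 female arrays (0.61, 0.53 and 1.10) and on 0 of 3 male arrays. Its 60 bases, at chrX:91523230-91523289 of rat build rn3, are shown because this probe is the check of the titles.
AW141328: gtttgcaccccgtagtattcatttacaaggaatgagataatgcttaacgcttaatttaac

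With limma and Benjamini-Hochberg adjustment, 784 of the 25597 genes (3.06%) differed between the sexes at an adjusted p under 0.05. Of these, 389 were higher in females (1.52%) and 395 higher in males (1.54%). The arrays of the sexes did not overlap for 7888 genes (30.8%), and 5746 genes had an unadjusted p under 0.05. The median difference over all genes, female minus male, was -0.04, with 12060 differences positive and 13537 negative. These counts over all genes are the measure for the counts of each list below. Of the 389 higher-in-female genes, 182 were above background on no male array and 81 on only some, whereas 312 of the 395 higher-in-male genes were above background on all 6 arrays. Another 74 of the 395 were not above background on all 3 male arrays, 23 of them on none. These 74 were kept through the female arrays alone. For the 23, no male value was above background, on arrays where the dimmest signal counted lay higher than on the female arrays. The direction of those 23 was therefore not measured. The balance of directions moved with the processing: quantile normalization between arrays gave 738 genes higher in females and 402 higher in males, another background correction (normexp) 1018 and 7436, and genes above background on all 6 arrays 329 and 739. The count also turned on single arrays. It was 47 without female replicate 2, 48 without female replicate 1, 153 without female replicate 3, 170 without male replicate 2, 456 without male replicate 3 and 729 without male replicate 1. With slide as a block, 118 genes (0.461%) were called, 79 of them among the 784, while 776 of the 784 kept their sign. Of the 81 genes that the naming rule picked, 49 were called, 27 higher in females and 22 higher in males. The slide block kept 14 of these calls and lost 35. Those kept included Obp3, Mup4, Mup5, Mup4l1, Mup4l4, Akr1b7, Cygb, Pdgfrb, Col3a1, Bgn, C3h15orf48, Slc26a1 and Apoc1, and of the 49 no other gene described below was kept. Leaving out female replicates 1, 2 and 3 kept 17, 17 and 24 of these calls, and leaving out male replicates 1, 2 and 3 kept 37, 25 and 35. The 14 named genes called in all 6 of those fits included Obp3, Mup4, Mup5, Mup4l1, Mup4l4, Cyp2c7, Cyp2d3, Sult2a2, Cux2, Lrat, Pdgfrb, Cygb and Spmip11.

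Major urinary proteins were the largest difference in the experiment. All 6 alpha-2u globulin genes with a kept probe (Obp3, Mup4, Mup5, Mup4l1, Mup4l3 and Mup4l4) were higher in males, and they were the only members called of 8 in the list of urinary proteins and related lipocalins. The 2 others were Lcn2, an iron-siderophore carrier, at -0.84 (adjusted p = 0.13), and Rbp4, the plasma retinol carrier, at -0.67 (adjusted p = 0.36). These genes sit in a cluster of near-identical copies on chromosome 5, and short probes may bind more than 1 member, so levels of single copies are uncertain. Probes of 2 pairs of genes show how alike the copies are; the Mup5 probe shown is not the one whose values stand for the gene below. Capitals mark the bases that differ within a pair.
Obp3, chr5:78095776-78095835: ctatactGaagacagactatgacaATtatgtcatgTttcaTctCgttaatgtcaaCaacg
Mup4, chr5:78223032-78223091: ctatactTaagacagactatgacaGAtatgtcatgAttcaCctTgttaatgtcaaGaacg
Mup5, chr5:78689346-78689405: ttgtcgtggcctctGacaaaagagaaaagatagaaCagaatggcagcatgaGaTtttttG
Mup4l3, chr5:78715323-78715382: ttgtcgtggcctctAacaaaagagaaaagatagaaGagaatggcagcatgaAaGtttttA
The first pair differs at 7 of 60 bases (88.3% identity) and the second at 5 of 60 (91.7% identity). Coordinates are those of the files on rn3, and exons or introns at them were not annotated here.

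Obp3, an alpha-2u globulin of the same cluster, read -9.27, -8.70 and -9.08 on the female arrays and 3.26, 3.32 and 4.26 on the male arrays. No female array was above background, so the fold is a bound: Obp3 was at least 1630-fold higher in males (adjusted p = 1.7e-05, limma). Mup4 read -9.34, -8.60 and -9.15 in females and 3.48, 2.21 and 4.51 in males, at least 1406-fold higher in males (adjusted p = 0.00034). For both genes every male array lay above every female array. A bound sets the mean of the brighter sex against, per array of the other, the dimmest signal counted as above background. The adjusted p printed beside a bound, here and below, does not test the bound. It is that of the limma fit on the values as read, which in the dimmer sex are not above background. Fits that leave out 1 array, or take slide as a block, use the same values. The bounds depend on the background treatment and were not recomputed under another. With normexp, run with an offset of 50, the differences of Obp3 and Mup4 were smaller, at -7.86 and -7.52. Those of Sult2a2, Cygb, Pdgfrb and Nr2f1, whose bounds follow, were then 2.72, 1.96, 1.56 and 0.70.

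The other 4 genes had signal above background in some female arrays. Mup4l1, measured on all 6, read -1.49, -2.43 and -1.92 in females and 8.93, 9.01 and 8.55 in males, a difference of -10.78 ± 0.28 (SE; adjusted p = 1.7e-05). Mup5 read -3.75, -7.19 and -5.05 in females and 8.44, 8.28 and 8.08 in males (-13.60 ± 0.78, adjusted p = 0.00099). For Mup4l4 the female arrays read -3.80, -8.00 and -5.32 and the male arrays 7.50, 8.18 and 7.44 (-13.41 ± 0.96, adjusted p = 0.0032). Each of Mup5 and Mup4l4 was above background on 2 of 3 female arrays, and no male array came near the female range. Mup4l3, likewise above background on 2 of 3 female arrays, gave -5.20, -7.31 and -6.24 against 7.08, 6.74 and 7.16 (adjusted p = 0.00015).

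Over the 12 probes of the 6 genes, the gap between the lowest male and the highest female array was never below 10.04 log2 units, with stand-in values counted as read where a probe was not above background. All 12 were above background on every male array, 2 were so on every female array and 2 on none. All 6 genes stayed called in each of the 6 fits that leave out 1 array, and all 6 stayed called with slide as a block (adjusted p at most 0.038).

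**Figure D1:**
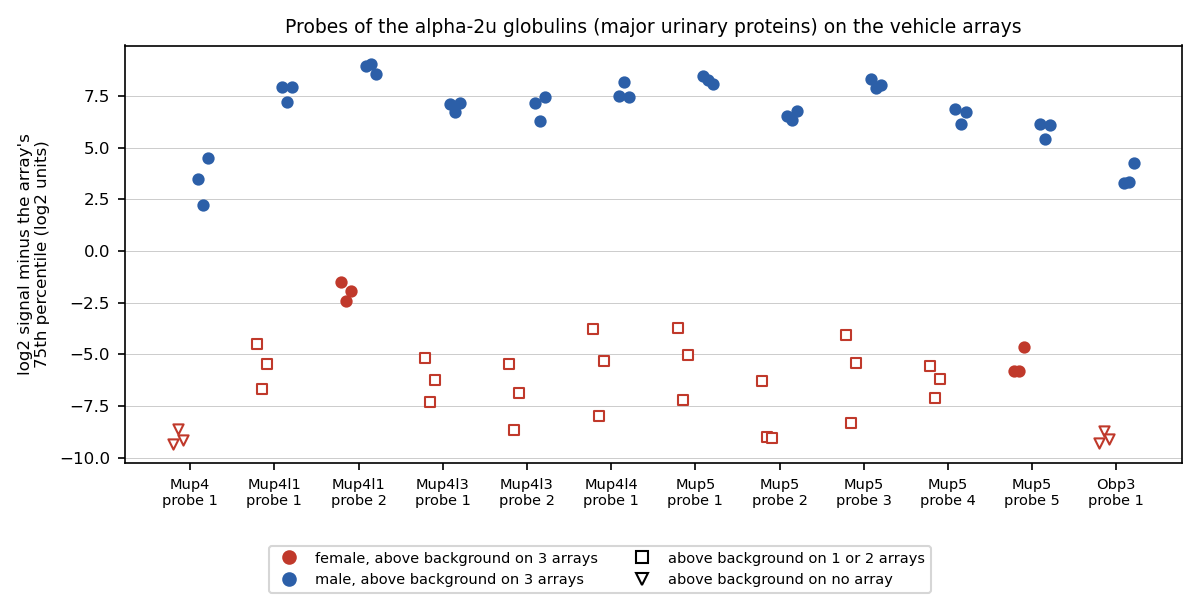
Level of each of the 12 alpha-2u globulin probes on the 3 female (red) and 3 male (blue) vehicle arrays, as log2 signal minus the array's 75th percentile; each point is 1 array and its shape gives on how many arrays of that sex the probe was above background. Male points lie between 2.21 and 9.01 and female points, stand-in values among them, lie at least 10.04 below the male points of the same probe.

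Cytochromes P450 of the Cyp2c subfamily hydroxylate steroids and drugs. Of 8 kept members, 2 were called higher in females (Cyp2c7 and Cyp2c12), 1 higher in males (Cyp2c13) and 5 were not called, with a median of -0.05 beside -0.04 over all genes. Cyp2c12, the classic female-specific P450 of rat liver and called Cyp2c40 in the file, read 4.15, 4.82 and 4.69 in females and 1.74, 1.26 and 2.77 in males. That is a difference of 2.63 ± 0.40, 6.19-fold (adjusted p = 0.029), and it was called in only 1 of the 6 fits that leave out 1 array and not with slide as a block (2.37, adjusted p = 0.26). Cyp2c7, a female-predominant retinoid and steroid hydroxylase, read 0.35, 2.14 and 1.78 in females and -5.10, -5.19 and -3.90 in males (6.15 ± 0.54, adjusted p = 0.0073). Only 1 of the 3 male arrays was above background for it, and for none of its 4 probes were more. The 4 probes had differences of 6.15, 4.29, 3.00 and 1.62, so the size depends on the probe, and the largest is the one above. Cyp2c7 stayed called without any single array, but not with slide as a block (5.81, adjusted p = 0.079).

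On the male side, Cyp2c13 read -1.36, -0.27 and 0.05 in females and 2.63, 2.41 and 3.07 in males (-3.23 ± 0.39, adjusted p = 0.018; 0.11 under the slide block). Cyp2c11, the main male-specific P450 of rat liver, read -2.12, -1.14 and -0.31 in females and 1.53, 0.06 and 1.80 in males, a difference of -2.32 ± 0.59 that did not pass (adjusted p = 0.086), although the arrays did not overlap. Cyp2c22, another member, had a difference of 0.28 (adjusted p = 0.61).

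The kept genes of the Cyp3a list were the Cyp3a enzymes Cyp3a2, Cyp3a9, Cyp3a18, Cyp3a23-3a1 and Cyp3a62, the nuclear receptor PXR (Nr1i2), its partner Rxra, and Por, which passes electrons to P450s. None of these 8 was called by limma, 5 having an unadjusted p under 0.05, all lower in females (median of the 8 -1.41, all of them negative). Cyp3a2, a male-specific testosterone hydroxylase, read -5.95, -1.97 and -3.22 in females and -0.37, 1.49 and 1.86 in males (-4.71 ± 1.04, adjusted p = 0.064). Cyp3a18 came closest, at -3.76, -2.28 and -2.89 against -0.91, 1.47 and -0.03 (-3.15 ± 0.64, adjusted p = 0.051). For both genes every male array lay above every female array, and the spread within each sex was wide. Among 28 other drug- and lipid-oxidising P450s, 2 were called, both higher in males. Cyp2d3 read -2.63, -2.26 and -3.04 in females and 0.42, 0.10 and 0.04 in males (-2.83 ± 0.25, adjusted p = 0.0078), and it stayed called without any single array, but not under the slide block (-1.83, adjusted p = 0.074). Cyp2a2, a male-specific testosterone hydroxylase, read -5.26, -5.25 and -5.42 against -3.86, -3.59 and -3.10 (-1.80 ± 0.24, adjusted p = 0.023; 0.077 under the slide block), with 1 of 3 male arrays above background. Male replicates 1 and 2 lay below the dimmest signal counted there (-3.49 and -3.40), so its size is uncertain, and its direction in vehicle rests on male replicate 3. In dexamethasone, with 3 of 3 male arrays above background, the difference of Cyp2a2 was -0.66 (adjusted p = 0.064, limma). The median of that list was -0.49.

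Sult2a sulfotransferases conjugate hydroxysteroids and bile acids. Of 10 kept sulfotransferases, 3 were called, all higher in females (Sult2a6, Sult2a2 and Sult4a1), and the list's median was 0.30, or -0.52 with another background correction (normexp). Sult2a6 read 0.92, 2.76 and 2.12 in females and -5.24, -2.68 and -3.23 in males (5.65 ± 0.73, adjusted p = 0.021), with 2 of 3 male arrays above background. Sult2a2 read -1.20, 0.49 and -0.24 in females and stayed below background in all males, at least 11.5-fold higher in females (adjusted p = 0.0038). Under the slide block neither was called (adjusted p = 0.35 and 0.30). Sult4a1, a brain-type sulfotransferase, was barely past the threshold (adjusted p = 0.0495). It was above background on no male array, and its female levels of -4.18, -4.16 and -4.14 lay near the male detection limit, so no fold is given.

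The probes of Sult2a2 gave different female levels. Probes 1 and 2 below overlap by 41 bases on chromosome 1 and differ at 2 of them, in capitals. The first gave the values above, while the second read -2.65, -6.35 and -5.80 in females. Like the first, the second was above background on all 3 female arrays and on no male array. Its male arrays read -5.27, -5.26 and -5.49, above female replicates 2 and 3. The difference as read was 0.41 for the second probe and 5.42 for the first, so the size depends on the probe. The third Sult2a2 probe, which lies apart from both, read -2.04, -1.16 and -2.20 in females and -5.54, -5.62 and -5.76 in males, where it was not above background.
Sult2a2 probe 1, chr1:74616270-74616329: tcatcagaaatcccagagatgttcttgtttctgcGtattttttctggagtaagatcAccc
Sult2a2 probe 2, chr1:74616251-74616310: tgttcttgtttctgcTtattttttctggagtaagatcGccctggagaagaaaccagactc
Sult2a1 did not pass (adjusted p = 0.097) and was above background on no male array.

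Of 21 kept steroid-converting enzymes and aldo-keto reductases, 2 were higher in females and 1 in males, with a median of 0.00. Akr1b7, an aldose reductase-like enzyme, read -1.46, -0.35 and 0.25 in females and was below background in all males, at least 9.97-fold higher in females (adjusted p = 0.012; adjusted p = 0.042 with slide as a block). Srd5a1, which reduces testosterone to its more potent form, read -0.32, -0.04 and -0.29 in females and -1.34, -1.23 and -1.79 in males, 2.36-fold higher in females (adjusted p = 0.041; 0.16 under the slide block). Hsd11b1, which regenerates active glucocorticoid, read 4.09, 3.88 and 3.36 against 5.37, 5.94 and 5.56, 3.60-fold higher in males (adjusted p = 0.026; 0.11 under the slide block). Srd5a1 and Hsd11b1 were above background on all 6 arrays. None of the 9 UDP-glucuronosyltransferases, which conjugate drugs and steroids, was called (median 0.00, 2 at an unadjusted p under 0.05), the closest being Ugt2b15 at -0.88 (adjusted p = 0.10).

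Carriers of anions and cations were higher in males where they were called: 3 of 23 transporters, all in that direction, with a median of -0.49. Slc22a8, an organic anion exchanger, read -1.62, -1.12 and -2.15 in females and 3.30, 1.88 and 2.47 in males, 18.1-fold higher in males (-4.18 ± 0.42, adjusted p = 0.0099), but it was not called under the slide block (-3.06, adjusted p = 0.18). Ust5r, a related organic anion carrier, had a difference of -2.74 ± 0.43 (adjusted p = 0.032) with 2 of 3 male arrays above background. Outside that list, Slc26a1, a sulfate and anion exchanger, read 1.47, 1.45 and 1.48 in females and 3.99, 4.72 and 3.93 in males (-2.75 ± 0.26, adjusted p = 0.0086; 0.045 with slide as a block). Its female arrays were nearly equal, and the highest of them lay well below the lowest male array. Slco1a1, a male-predominant organic anion transporter, did not pass (0.71, adjusted p = 0.37).

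**Figure D2:**
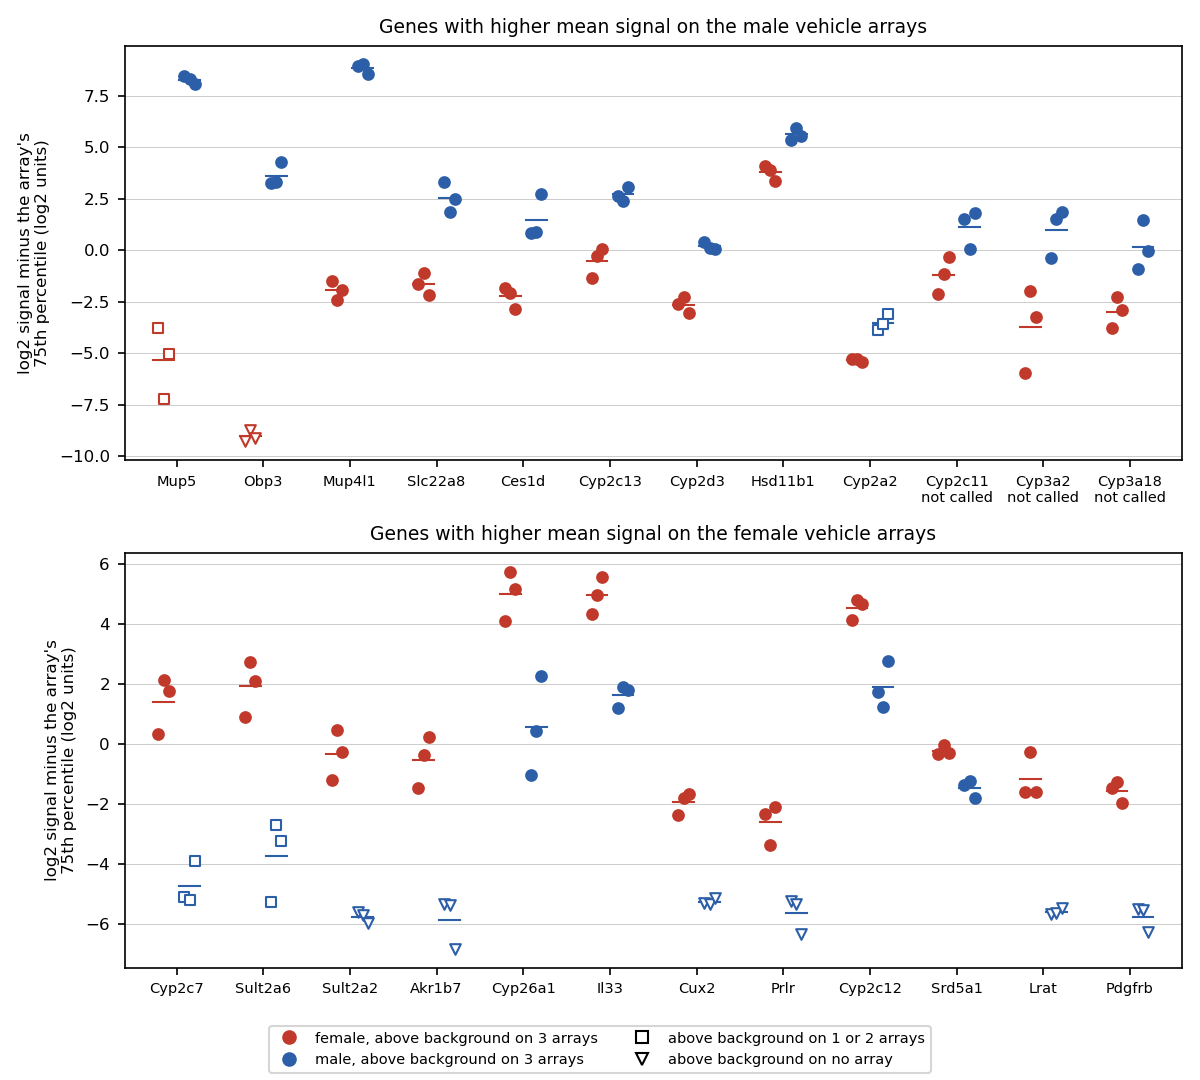
Levels of 12 genes with a higher mean in males (upper panel) and 12 with a higher mean in females (lower panel) on the 3 female (red) and 3 male (blue) vehicle arrays, as log2 signal minus the array's 75th percentile. Each point is 1 array, the short line is the group mean, the shape gives on how many arrays of that sex the gene was above background, and Cyp2c11, Cyp3a2 and Cyp3a18 are marked as not called; in the lower panel the male points of 6 genes (Sult2a2, Akr1b7, Cux2, Prlr, Lrat and Pdgfrb) are all below background.

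A list of male-biased genes from textbook knowledge of rat liver had 26 kept members, of which 8 were called higher in males and 0 in females, with a median of -1.64. A like list of female-biased genes had 31, of which 10 were called higher in females and 0 in males, with a median of 1.12. Of these 31 differences, 21 were positive and 10 negative, and 4 had an unadjusted p under 0.05 towards males. For 5 members every male array lay above every female array, which held for 17.1% of all genes. One of them was Cyp3a9, a steroid hydroxylase, at -1.46 (adjusted p = 0.125, limma). In the male-biased list the called genes were Obp3, Mup4, Mup5, Cyp2c13, Cyp2a2, Ust5r, Hsd11b1 and Fmo1, a flavin monooxygenase (-1.44, adjusted p = 0.035). The called female-biased genes were Cyp2c7, Cyp2c12, Sult2a2, Sult2a6, Akr1b7, Srd5a1, Prlr, Cux2, Trim24 and Prom1. These lists were chosen with earlier results of these data known, so their directions are a description. With slide as a block the medians became -1.90 and 0.19, and 3 and 1 genes were called. Carbonic anhydrase Car3, a muscle- and liver-type enzyme long known as male-biased, had overlapping arrays (-2.64 ± 0.94, adjusted p = 0.16), with male replicate 2 at 0.24 and the other male arrays at 3.88 and 3.60.

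Of the growth hormone pathway itself, 1 of 17 kept genes was called. Prlr, the prolactin receptor, read -2.34, -3.35 and -2.10 in females and was below background in all males, at least 2.37-fold higher in females (adjusted p = 0.024). Under the slide block it was not called (adjusted p = 0.92). The receptor Ghr had a difference of 0.63 (adjusted p = 0.14), and the signal transducer Stat5b one of -0.03 (adjusted p = 0.94). Igf1, the secreted growth factor that growth hormone induces, read 5.87, 6.59 and 5.98 in females and 6.55, 6.33 and 6.06 in males, with overlapping arrays (-0.17, adjusted p = 0.74). Of the feedback inhibitors, Socs2 did not pass (0.94, adjusted p = 0.092), though it did with slide as a block (2.71, adjusted p = 0.032), and Cish had a difference of -0.79 (adjusted p = 0.26). The slide 1 shift of Socs2 in the block fit rests on male dexamethasone replicate 1, at -1.14, beside -2.88 and -2.73 on replicates 2 and 3.

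Among 18 kept transcription factors tied to sex-biased liver expression, 3 were called, all higher in females. Cux2, a homeobox repressor known as female-specific in liver, read -2.36, -1.80 and -1.65 in females and was below background in all males, at least 3.74-fold higher in females (adjusted p = 0.0032). It stayed called without any single array, on male values that were not above background, but not with slide as a block (adjusted p = 0.33). After quantile normalization Cux2 was not called either (0.90, adjusted p = 0.13, limma). Its other kept probe had a difference of 0.95, with 3 female and 0 male arrays above background, so the size depends on the probe. Nr2f1, an orphan nuclear receptor, was at least 2.19-fold higher in females (adjusted p = 0.024), and Trim24, a nuclear receptor cofactor, had a difference of 1.29 ± 0.21 (adjusted p = 0.033). Bcl6, a male-biased repressor, read -0.03 (adjusted p = 0.95), and the liver-enriched factors Onecut1 and Hnf4a read 0.45 each (adjusted p = 0.31 and 0.41). None of the 6 kept sex hormone and glucocorticoid receptors was called, 1 having an unadjusted p under 0.05.

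The palindrome TTCNNNGAA, in which STAT5 dimers are known to bind, was sought on both strands in RefSeq promoters (GRCr8, 250 bases before to 50 after a start). It was found in 12 of 170 matched higher-in-female genes (7.06%), in 3 of 103 higher-in-male genes (2.91%), in 798 of 10510 kept genes (7.59%) and in 2577 of 27457 genes of the table (9.39%). The urinary protein promoters are shown because these genes moved together. Of the 6, only Mup4l1 held the motif, 214 bases before its start. Obp3 and Mup4l3 have a window matching that of Mup4l1 at 36 and 34 of 40 bases, in which the corresponding 9 bases, in capitals, do not match the motif.
Mup4l1, chr5:80226725-80226764, minus strand: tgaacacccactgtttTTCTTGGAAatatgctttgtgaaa
Obp3, chr5:79640874-79640913, minus strand: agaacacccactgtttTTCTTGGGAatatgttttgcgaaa
Mup4l3, chr5:80318568-80318607, minus strand: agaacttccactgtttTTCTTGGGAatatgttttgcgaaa
The best window of the other three (Mup4, Mup5 and Mup4l4) matched at 18 of 40 bases. A match in a promoter is a match of letters, and binding was not measured.

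Genes above background on all 6 arrays give the differences least touched by the detection limit. The 10 with the largest differences towards females with a symbol were Cyp26a1, Il33, Mgp, Aspg, Cyp2c12, Cxcl12, Col3a1, C3h15orf48, Prss23 and Bgn. Cyp26a1, which degrades retinoic acid, read 4.10, 5.76 and 5.19 in females and -1.02, 0.45 and 2.28 in males (4.45 ± 0.82, 21.8-fold, adjusted p = 0.043). Its arrays did not overlap, but it was called in 1 of the 6 fits that leave out 1 array. Il33, an alarmin cytokine, read 4.34, 4.98 and 5.58 against 1.21, 1.90 and 1.83, 10.0-fold higher in females (adjusted p = 0.013; 0.21 under the slide block). Bgn, a matrix proteoglycan encoded on the X chromosome, read 3.60, 3.64 and 3.23 against 1.59, 1.12 and 1.23, 4.53-fold higher in females (adjusted p = 0.010; 0.021 with slide as a block). Aspg, an asparaginase, and Prss23, a serine protease, were 6.24-fold and 4.59-fold higher in females (adjusted p = 0.023 and 0.016).

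Towards males the 10 were Mup4l1, Slc22a8, Ces1d, Spmip11, Cyp2c13, Cx3cl1, Cyp2d3, Slc26a1, Slc27a5 and Sorl1. Ces1d, a carboxylesterase of lipid and drug hydrolysis, read -1.82, -2.08 and -2.83 in females and 0.82, 0.90 and 2.70 in males (13.1-fold, adjusted p = 0.027). Cx3cl1, the chemokine fractalkine, read 2.02, 1.46 and 1.03 against 3.90, 5.65 and 3.85 (7.81-fold, adjusted p = 0.039). It was called in 0 of the 6 fits that leave out 1 array. Slc27a5, which couples bile acids to coenzyme A, was 6.09-fold higher (adjusted p = 0.027), and Sorl1, a sorting receptor, 5.90-fold higher (adjusted p = 0.0099).

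Over all 25597 genes, 3.06% were called and 5746 had an unadjusted p under 0.05, the measure for the list counts that follow. In lists of metabolism, by limma, no gene was called among 23 of fatty acid synthesis (median -0.31, 6 genes at an unadjusted p under 0.05) or 27 of fatty acid oxidation (-0.56, 14 genes, of which 12 lower in females). Nor was any called among 21 of cholesterol synthesis (-0.02, 3 genes) or 37 subunits of oxidative phosphorylation (-0.23, or 0.00 after quantile normalization; 11 genes). Among 33 genes of gluconeogenesis and amino acid breakdown, Pc, pyruvate carboxylase, and Pklr, the liver pyruvate kinase, were higher in males by 3.33-fold and 2.28-fold (adjusted p = 0.033 and 0.041). Agxt, which detoxifies glyoxylate, was 3.35-fold higher in females (adjusted p = 0.049). Of 14 bile acid genes Slc27a5 alone was called, and of 19 glutathione S-transferases Mgst3 alone (-1.26, adjusted p = 0.049).

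Of 38 plasma proteins secreted by hepatocytes, 2 were called, both higher in males, and 32 of the 38 differences were negative (median -0.69, or -0.40 after quantile normalization). Over all 25597 genes, 13537 differences were negative and 12060 positive. Apoc1 read 4.55, 4.15 and 4.85 in females and 6.29, 6.26 and 6.88 in males, 3.90-fold higher in males (adjusted p = 0.024; 0.042 with slide as a block), and Apoa4 was 3.37-fold higher (adjusted p = 0.027). Both are apolipoproteins of circulating lipid particles. Of 20 acute phase genes none was called (6 at an unadjusted p under 0.05), the closest being Crp at 1.06 (adjusted p = 0.067). Of 30 cell cycle genes, 27 differences were positive (median 0.52), but Aurkb alone, a mitotic kinase, was called (1.45, adjusted p = 0.041, above background on 1 of 3 male arrays). Of 34 chemokines and cytokines, Cxcl12 and Cxcl6 were called higher in females and Cx3cl1 higher in males. None of 27 interferon response, 27 immediate early and 17 clock genes was called, with 5, 8 and 2 at an unadjusted p under 0.05.

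**Figure D3:**
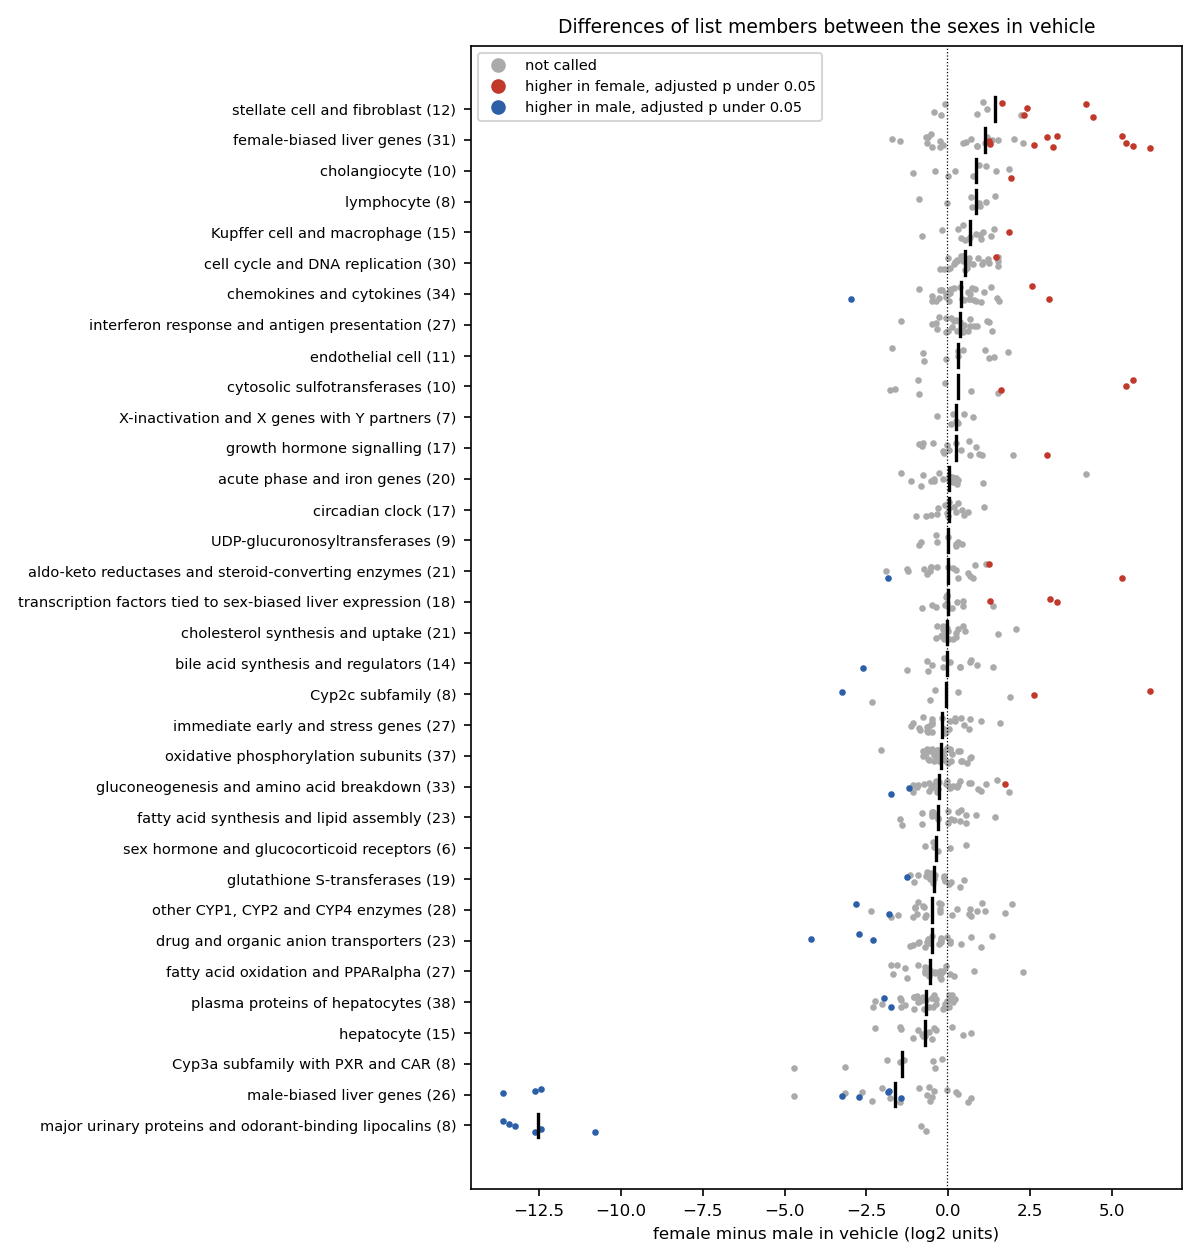
Female-minus-male difference in vehicle (log2 units) of each kept member of the gene and marker lists, ordered by list median; a point is 1 gene, a black bar the list median, the dotted line the median of all genes (-0.04), and the number in brackets the members kept. The urinary proteins lie at -10.78 and below, apart from Lcn2 and Rbp4, and points of genes below background in a sex rest on stand-in values there, and most other lists hold members on both sides of the line.

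Of 12 kept stellate cell and fibroblast markers, 5 were called, all higher in females: Lrat, Pdgfrb, Col3a1, Dcn and Vim (median 1.41). Of the 12 differences, 9 were positive and 3 negative. Lrat, which stores retinol as esters, read -1.59, -0.27 and -1.59 in females and was below background in all males, at least 6.45-fold higher in females (adjusted p = 0.0061; 0.058 under the slide block). Pdgfrb, the growth factor receptor of mesenchymal cells, was at least 4.89-fold higher (adjusted p = 0.0032; 0.021 with slide as a block). Col3a1, a fibrillar collagen, read 0.87, 0.53 and -0.23 against -2.02, -2.43 and -1.58 (2.40 ± 0.35, adjusted p = 0.027; 0.035 with slide as a block). Outside that list, Cygb, a globin known from stellate cells, was at least 7.42-fold higher (adjusted p = 0.0073), and Mgp, a matrix protein, 7.74-fold higher (adjusted p = 0.036). Mgp was called in only 1 of the 6 fits that leave out 1 array, and not with slide as a block (adjusted p = 0.089).

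Summed over their lists, in multiples of the array's 75th percentile, stellate markers came to between 214 and 269 in females and between 97.6 and 240 in males, which overlap, with Lum and Thy1 above background on no array. Hepatocyte markers came to between 1514 and 1988 in females and between 2410 and 3083 in males, without overlap, and 0 of 15 was called by limma, 7 having an unadjusted p under 0.05 (median -0.72, or -0.14 after quantile normalization). Endothelial sums did not overlap, at 16.3 to 36.0 in females and 9.01 to 11.9 in males (0 of 11 called, 3 at an unadjusted p under 0.05, Tek above background on no array). Of 13 endothelial markers on the array, 12, 11 and 11 were above background on female replicates 1, 2 and 3. On male replicates 1, 2 and 3 only 5, 3 and 4 were, so the male sums rest partly on values not above background. Kupffer cell sums were 60.7 to 123 and 56.6 to 111, with Csf1r alone called of 15 (1.85, adjusted p = 0.043). Cholangiocyte sums were 14.3 to 27.8 and 3.50 to 13.8, with 1 called of 10. Lymphocyte sums were 1.01 to 2.21 and 0.916 to 1.86, with none called of 8, 3 at an unadjusted p under 0.05, and Cd2 and Ms4a1 among the markers above background on no array. Of 14 stellate markers on the array, 12 were above background on each female array and 7, 8 and 9 on male replicates 1, 2 and 3. For 11 cholangiocyte markers the counts were 10 on each female array against 5, 4 and 7. For 12 lymphocyte markers they were 8, 9 and 8 against 1, 3 and 3. These male sums, too, rest partly on values not above background. The medians of the endothelial, cholangiocyte and lymphocyte lists were 0.31, 0.85 and 0.84, and turned to -0.48, -0.27 and -0.15 with normexp. Fewer cells of a type and less RNA per cell cannot be told apart in these samples, and the part of other cells in the differences above was not tested.

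**Figure D4:**
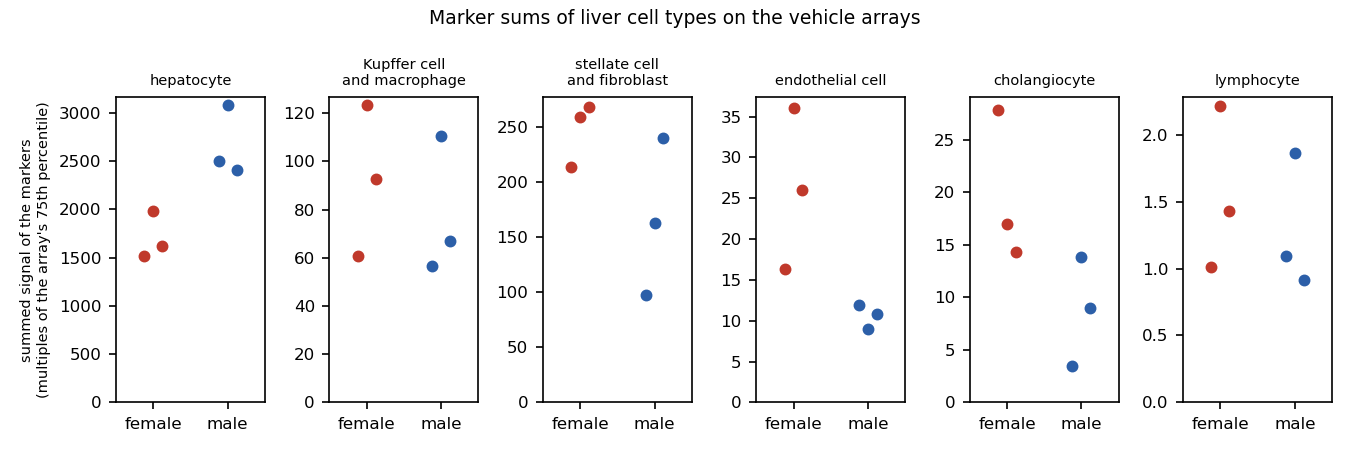
Summed linear signal of the marker list of 6 liver cell types on each vehicle array, in multiples of that array's 75th percentile, with females in red and males in blue and 1 point per array. Hepatocyte sums lie at 2410 or above in males and at 1988 or below in females, and stellate sums overlap between 214 and 240. Markers not above background on an array are included in its sums.

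The 829 kept X-linked genes had a median of 0.04 and 3.02% called (21 higher in females and 4 in males), beside -0.04 and 3.01% for 23427 genes placed elsewhere. Of 7 kept X genes that have Y partners or take part in X inactivation, none was called and 1 had an unadjusted p under 0.05. Eif2s3, a translation initiation factor subunit, came closest at 3.05, 2.80 and 2.85 against 2.00, 2.31 and 2.14 (0.75, adjusted p = 0.083).

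The same sexes were compared on the 6 dexamethasone arrays, which are other samples; within each sex, arrays of the same number deviated together in both settings, so the settings are not independent. There, 846 genes (3.31%) were called, 323 higher in females (1.26%) and 523 in males (2.04%). Of the 389 genes higher in females in vehicle, 343 had the same sign and 102 were called again. Of the 395 higher in males, 374 had the same sign and 164 were called again, and no gene was called in the opposite direction. In dexamethasone, too, no slide held both sexes. The female arrays all lay on slide 3, male replicate 1 on slide 1 and male replicates 2 and 3 on slide 2. Within either setting slide and sex therefore cannot be told apart. Male dexamethasone replicate 1 shares slide 1 with the male vehicle arrays. Without it, 82 and 105 genes were called again. All 49 named genes that were called in vehicle kept their sign, and 34 were called again.

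Obp3 and Mup4 were called higher in males in both settings (adjusted p = 0.00012 for both in dexamethasone) and were above background on no female array in either. Cyp2c12 had a difference of 2.36 in dexamethasone (adjusted p = 0.039), Cyp2c7 one of 4.20 (adjusted p = 0.022), Cyp2c13 one of -2.77 (adjusted p = 0.041) and Cyp2d3 one of -2.58 (adjusted p = 0.017). These 6 genes were therefore called in the same direction in both settings. Mgp had a difference of 2.95 in vehicle and of 0.09 in dexamethasone (adjusted p = 0.94). The difference between the settings passed the interaction test of limma for none of the 49 named genes called in vehicle. Over all genes 13 passed it (0.0508%), with 2815 at an unadjusted p under 0.05. With slide as a block 0 passed, with 2098 at an unadjusted p under 0.05. With the replicate number within sex as a block, which pairs vehicle and dexamethasone arrays, 0 passed, with 4025 at an unadjusted p under 0.05, and the smallest adjusted p of the 49 was 0.13.

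**Figure D5:**
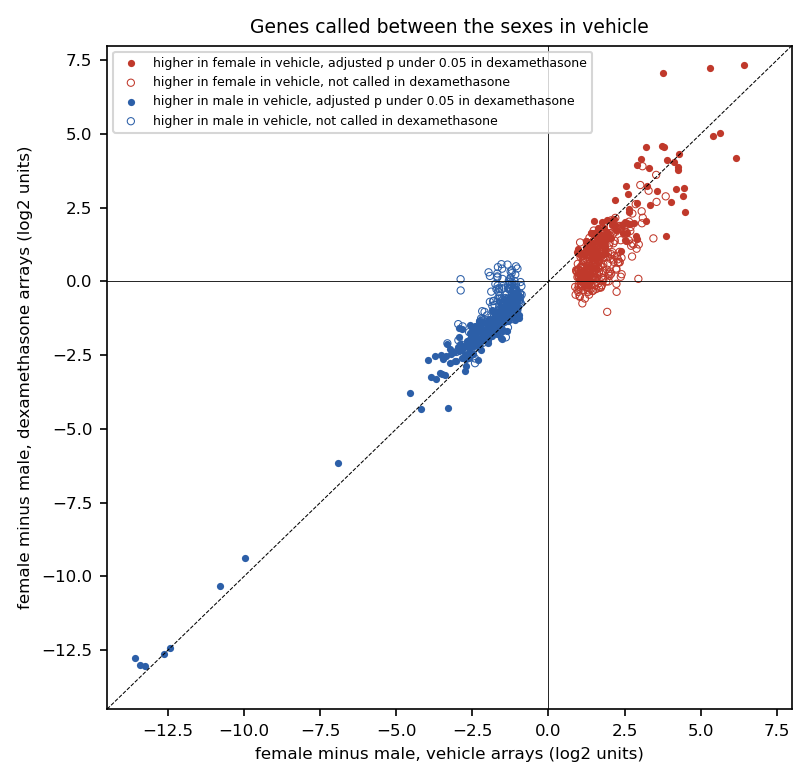
Female-minus-male difference (log2 units) of the 784 genes called in vehicle, on the vehicle arrays (horizontal) and on the dexamethasone arrays (vertical); 1 point per gene, red higher in females and blue higher in males in vehicle, filled where also called in dexamethasone, with the dashed line at equality and stand-in values where a gene was below background. Of the red points 343 of 389 lie above 0 and of the blue points 374 of 395 lie below 0 on the vertical axis.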

How the data were processed

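Total RNA of the 12 samples was labelled with Cy3 and hybridised to 1-colour Agilent arrays, per the labels. The deposited scanner files come from Agilent Feature Extraction 9.5, per the submitters' processing notes, and give an intensity for each spot. Per the file headers, this processed intensity is linear, with a fitted background surface subtracted within each array, a stand-in value where a spot was not above it, and no scaling between arrays. The authors' deposited value table holds the same intensity values (540216 of 540216 equal). Its scale is thus linear and uncentred.

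Each file has 43379 spots that are not controls, from 41012 probes. Outlier spots were left out and spots of a probe averaged as log2 values, minus the array's 75th percentile. A probe was kept (29955 were) if all 3 female or all 3 male vehicle arrays put it well above background. Names of 21122 probes were updated through a RefSeq table, 19890 kept the file's name, and 178 matches to another chromosome were refused. Of several probes of a gene (3530 genes) the one with the highest mean signal over the arrays stood for it. Promoters of 64 named genes were found in the RefSeq table.

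Limma 3.58.1 (R 4.3.3; lmFit, eBayes, Benjamini-Hochberg over all 25597 genes, two-sided, adjusted p under 0.05) was fitted to the 6 vehicle arrays. Differences are female minus male, with the SE of the fit. In each list, the number of members called and the median are given without a list test. On simulated data with the same spread, limma recovered 4% of genes changed by 1 log2 unit, 40% by 2 and 78% by 3 (50 genes each among 25597), with 3 false calls. The number of arrays limits the precision.

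Named genes were the 10 largest differences each way above background on all 6 arrays, the 4 largest bounds each way, the 2 largest each way of each list or its smallest p, and a fixed set of sentinel genes. The comparison, lists and members were chosen with earlier results of these data known. Slide, normalization, background, filter, probe choice, weights, the replicate number and single arrays were varied. Deviations of same-numbered vehicle and dexamethasone arrays from their group means correlated at 0.28 to 0.47 in the 6 pairs within a sex, each over 0.1, so the numbers were taken to pair these arrays. This pairing comes from the data. The fits over 12 arrays without this block treat the pairs as independent. Some results are not reported here.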

Additional observations from a re-analysis of the deposited data

Results flagged for a closer look

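For 5 genes with a symbol the difference between the sexes itself differed between vehicle and dexamethasone, by limma's interaction test over 12 arrays (vehicle minus dexamethasone of the female-minus-male difference). They were taken because they passed that test, after their values were seen. The interaction was -2.13 for Reg3a, -2.98 for Myzap, -1.92 for Zfp474, -1.36 for Or52e5 and 1.57 for Vrk2.

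Reg3a, a secreted lectin, read -4.96, -4.48 and -4.60 in females and -3.13, -3.13 and -3.14 in males in vehicle, where 2 of 3 male arrays were above background, and -3.31, -3.35 and -3.08 against -4.01, -3.70 and -3.79 in dexamethasone. The mean was higher in males in vehicle (adjusted p = 0.021) and in females in dexamethasone, where the difference did not pass (adjusted p = 0.082). The interaction had an adjusted p of 0.024. Zfp474 showed the same order, with differences of -1.35 in vehicle and 0.57 in dexamethasone, while for Or52e5, an olfactory receptor gene, no male vehicle array was above background, so its interaction rests on stand-in values. Vrk2, a kinase, differed by 1.64 in vehicle and 0.08 in dexamethasone, its male vehicle arrays reading -2.05, -2.42 and -2.09 and every other array between -0.92 and -0.44. For Myzap no male array was above background in either setting, so the male values give no level.

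With the replicate number within sex as a block none of the 5 passed (adjusted p = 0.13 for each). With slide as a block none passed either, and the 3 male vehicle arrays share slide 1. After quantile normalization the interaction of Myzap was -0.14.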

How the results depend on the processing

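The female minus male count in vehicle (784) became 3323 with all 12 arrays in the fit, 118 with slide as a fixed block, 7987 with slide as a random block (within-slide correlation -0.38), 8454 with normexp background correction, 10137 with no filter on dim probes and 13 for female vehicle replicate 3 alone. It ranged from 47 to 729 with 1 array left out. The count over the gene lists (37) became 10 with slide as a fixed block and 12 to 41 with 1 array left out. The median of X chromosome genes (0.04) became 0.16 after quantile normalization, 0.0060 for genes above background on all 6 arrays and -0.012 to 0.088 with 1 array left out. The dexamethasone count (846) became 32 with slide as a random block and 15 to 701 with 1 array left out. The interaction count (13) became 0 with slide as a fixed block, 5 above background on all 12 arrays, 288 after quantile normalization and 0 to 188 with 1 array left out. Unadjusted counts under 0.05 are 2098 for the first of these and 2103 or more for those left-out fits. The cause of these shifts was not tested. The left-out arrays for the lists, X genes, dexamethasone and interaction, and the replicate block beyond the vehicle comparison, were chosen after seeing the data.

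With the replicate number as a block, 419 genes were called in vehicle and 0 in the interaction (3282 at an unadjusted p under 0.05). With the replicate number within sex as a block, the interaction count was 0 (4025). Deviations of same-numbered female and male vehicle arrays correlated at 0.12, 0.04 and 0.05 for numbers 1, 2 and 3, so the numbers were not taken as pairs between the sexes.

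None of the 49 named calls changed sign under any alternative run. Differences of genes not called did. With slide as a fixed block, Gzmb became -0.48, Slco1a1 -0.47, Igf1 0.19, Stat5b 0.10, Cish 0.051 and Hnf4a -0.10. With normexp, Nr1d2 became -0.36, Gzmb -0.20, Sult2a1 -0.19 and Bcl6 0.52. After quantile normalization Igf1 became 0.056, Stat5b 0.0024 and Bcl6 0.020, and with the 75th percentile of probes above background on all arrays Stat5b became 0.016 and Bcl6 0.013. Igf1 became 0.15 as a probe mean. Stat5b became 0.10 for female replicate 3 alone, and with 1 array left out lay between -0.15 and 0.081 (0.0068 without female replicate 1), and Bcl6 became 0.18 without male replicate 2.

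Quantile normalization shifted the median of all genes from -0.04 to 0.09 and normexp to -0.36. The remaining alternatives kept the vehicle count between 606 and 1140. Where no male array was above background, only a bound can be given.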

Other observations

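Several called genes outside the naming rule were noted after their values were seen. Serpina3m, a serine protease inhibitor of plasma, read -0.23, -1.03 and -0.60 in females and 2.07, 1.69 and 2.07 in males (-2.56 ± 0.26, adjusted p = 0.010). It was called in all 6 fits that leave out 1 array and with slide as a block (adjusted p = 0.043). Mmp3, a matrix-degrading protease, read -0.30, 0.54 and 0.23 against -3.20, -3.16 and -3.89 (3.57 ± 0.31, adjusted p = 0.0065), with 2 of 3 male arrays above background. Car4, a membrane-bound carbonic anhydrase, read -0.90, -0.21 and -1.11 against -4.88, -5.27 and -4.13 (4.02 ± 0.36, adjusted p = 0.0080), with 1 of 3 male arrays above background. Mmp3 and Car4 were also called in dexamethasone (adjusted p = 0.017 for both).

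Of the globins, which mark red blood cells and their precursors, Hba-a3 and Hbb-b1 were called higher in males. Hba-a3 read -0.03, 0.74 and 0.21 in females and 2.48, 3.48 and 2.21 in males (-2.41 ± 0.38, adjusted p = 0.031). Hbb-b1 read -0.47, 0.02 and -0.75 against 2.33, 2.29 and 1.42 (-2.41 ± 0.33, adjusted p = 0.023). For both genes every male array lay above every female array.

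Signal of the alpha-2u globulins above background differed between female arrays. Of the 12 probes, 10, 2 and 9 were above background on female vehicle replicates 1, 2 and 3, and 9, 5 and 8 on female dexamethasone replicates 1, 2 and 3. Arrays numbered 2 thus had the fewest in each setting.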
